A study of Mus musculus with 8 samples.

Results

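The miR-338 hairpin is a small RNA precursor from which 2 mature microRNAs (miRNAs) can be cut, miR-338-3p and miR-338-5p. Both were found on the array by their names, mmu-miR-338-3p and mmu-miR-338-5p, and they are 2 of the 567 mouse miRNAs measured. The pair was selected on its processed intensities and detection flags in control against diabetic arrays. This difference is therefore described here, and no test of it is read as evidence. The labels name the tissue as skeletal muscle, and total RNA was labelled with the dye Cy3 and hybridised to 8 Agilent miRNA microarrays, 100 ng per array. The 4 diabetic arrays belong, by the design text, to C57BL/KsJ db/db mice, which lack a working leptin receptor and become obese and diabetic, and the 4 control arrays to db+ mice of the same strain. Groups follow the titles, descriptions and group entries. The strain entries name the genotypes the other way round, so every direction below rests on the titles. Age, sex, the muscle taken and whether each array held RNA of a separate mouse are not given in the sources used here, so the spread between arrays may be partly technical.

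A miRNA hairpin is cut by Drosha and Dicer into a short duplex, 1 strand of which is usually kept by an Argonaute protein while the other is degraded. The kept strand finds target mRNAs mainly through its seed, bases 2 to 8, and represses them. Mir338 is known to lie in an intron of Aatk, the gene of apoptosis-associated tyrosine kinase, a kinase of the nervous system. miR-338-3p is best known from myelinating glia, where it acts with miR-219 to let oligodendrocytes mature, and from axons, where it lowers the mRNA of a cytochrome c oxidase subunit.

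The sequences are shown because the arms differ in detection and share no seed. They come from RefSeq (GRCm38.p6), in which both members matched by name. The first 3 are mature miRNAs 5′ to 3′ with the seed in capitals, and the last is the hairpin with both mature arms in capitals.
miR-338-3p: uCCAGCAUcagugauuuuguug
miR-338-5p: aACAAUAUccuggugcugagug
miR-3065-5p: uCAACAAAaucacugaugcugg
Mir338 hairpin: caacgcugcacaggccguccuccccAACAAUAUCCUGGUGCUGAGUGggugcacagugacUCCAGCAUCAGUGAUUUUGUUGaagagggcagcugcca

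The hairpin of 98 bases lies at chr11:120014765-120014862 on the minus strand of GRCm38.p6, with the 5p arm at bases 26 to 47 and the 3p arm at bases 61 to 82. Each arm is 22 bases long, with a GC content of 45.5% for miR-338-5p and 40.9% for miR-338-3p. Folded with RNAfold, the hairpin had a minimum free energy of -41.9 kcal/mol and 33 base pairs, of which 18 joined one arm to the other across a gap of 13 bases. No other mature mouse miRNA among the 1679 names in the table shared bases 2 to 8 with either arm, so no seed relative was available on the array. In the gene table of the same assembly Aatk spans the hairpin on the same strand, and Mir3065 overlaps it on the opposite strand. miR-3065-5p overlaps 21 bases of miR-338-3p in the genome, and a run of 21 of its bases is complementary to miR-338-3p. No probe on the array is named for miR-3065.

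Detection differed completely between the arms. miR-338-3p, the arm known as the active strand, was detected on 8 of 8 arrays, and miR-338-5p, its partner, on 0 of 8. Detection of a probe required that at least 50% of its spots on the array carried the scanner software's flag for a signal well above background. Of the 160 spots of miR-338-3p on the 8 arrays, 118 carried this flag, and of the 160 spots of miR-338-5p, 0 did. No spot of either arm was saturated.

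**Figure D1:**
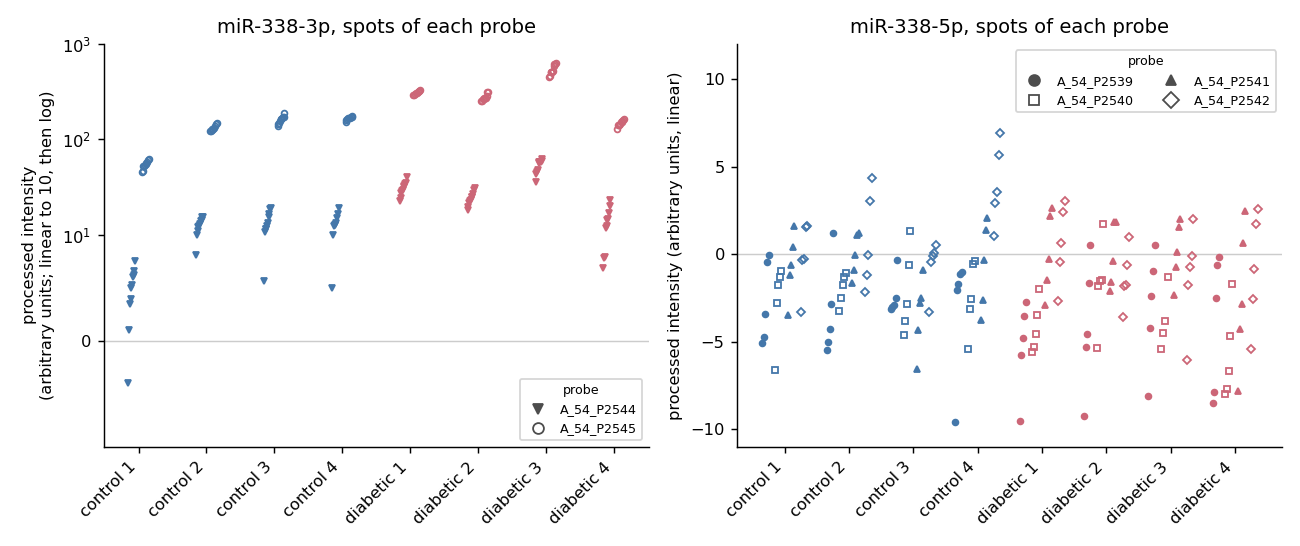
Processed intensity of each spot that was not an outlier, in arbitrary units, for the 2 probes of miR-338-3p (left, linear to 10 and logarithmic above) and the 4 probes of miR-338-5p (right, linear), by array, with control arrays in blue and diabetic arrays in red. Array means of the brighter miR-338-3p probe run from 54.4 to 541, while the miR-338-5p probes scatter around 0 on every array.

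miR-338-3p had 2 probes of 10 spots each. The brighter one, A_54_P2545, had mean processed intensities of 54.4, 133, 161 and 167 on control arrays 1 to 4. On diabetic arrays 1 to 4 it had 308, 277, 541 and 148. All 80 of its spots were well above background, and the coefficient of variation over the spots of 1 array was 4.41% to 12.2%. The spots of an array therefore lay much closer together than the arrays did. Before scaling the groups overlapped, since diabetic 4 lay below control 3 and control 4, while control 1 was the lowest of all and the other 3 diabetic arrays were the highest.

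The dimmer probe, A_54_P2544, read 4.10, 12.5, 13.4 and 12.9 on control arrays 1 to 4 and 30.5, 24.1, 52.5 and 13.6 on diabetic arrays 1 to 4. It was not well above background on any control array, with 5 of 40 control spots flagged, and it was detected on 3 of 4 diabetic arrays, with 33 of 40 spots flagged. The exception was diabetic 4. Its spots varied by 16.9% to 82.8% within an array, the widest on control 1, so no fold is given for it.

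The 4 probes of miR-338-5p, with 5 spots each, stayed at the level of the background. Their array means ran from -5.29 to -2.39 for A_54_P2539, from -5.76 to -1.70 for A_54_P2540, from -3.43 to 0.12 for A_54_P2541 and from -1.37 to 4.01 for A_54_P2542. For comparison, the lowest intensity of any probe counted as detected was 11.5 to 19.3, depending on the array, and the negative control spots averaged 3.03 to 4.76. The highest of these means belonged to control 4, and no diabetic array exceeded it. Neither group has a level for this arm, so no fold is given; the array shows only that it was not well above background.

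A detected arm with an undetected partner was common on these arrays. Of 164 hairpins whose names on the array give both arms, 44 had an arm detected on all 8 arrays. The other arm was detected on 0 arrays in 34 of these 44 (77.3%), miR-338 among them, on all 8 in 7, and on some arrays in 3. The 7 with both arms on all 8 arrays were miR-133a, miR-140, miR-199b, miR-29c, miR-30a, miR-30e and miR-378.

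miR-338-3p was higher on the diabetic arrays than on the control arrays. To compare arrays, each was scaled to the 75th percentile of the 152 probes that were detected on every array. The probes of a miRNA were then averaged and log2 was taken, so a relative log2 level of 0 equals that percentile. The levels were -3.40, -3.09, -1.95 and -1.86 on control arrays 1 to 4 and -1.08, -1.67, -0.48 and -1.44 on diabetic arrays 1 to 4. Every diabetic array exceeded every control array, but the gap between the highest control (control 4) and the lowest diabetic array (diabetic 2) was only 0.19. The means were -2.57 ± 0.78 and -1.17 ± 0.52 (SD, n = 4), a log2 difference of 1.41 (SE 0.38 from the limma fit), or 2.65-fold. Control 1 and control 2 lay 1.14 or more below the other control arrays, a wider step than any between neighbouring diabetic arrays, the widest of which was 0.61.

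**Figure D2:**
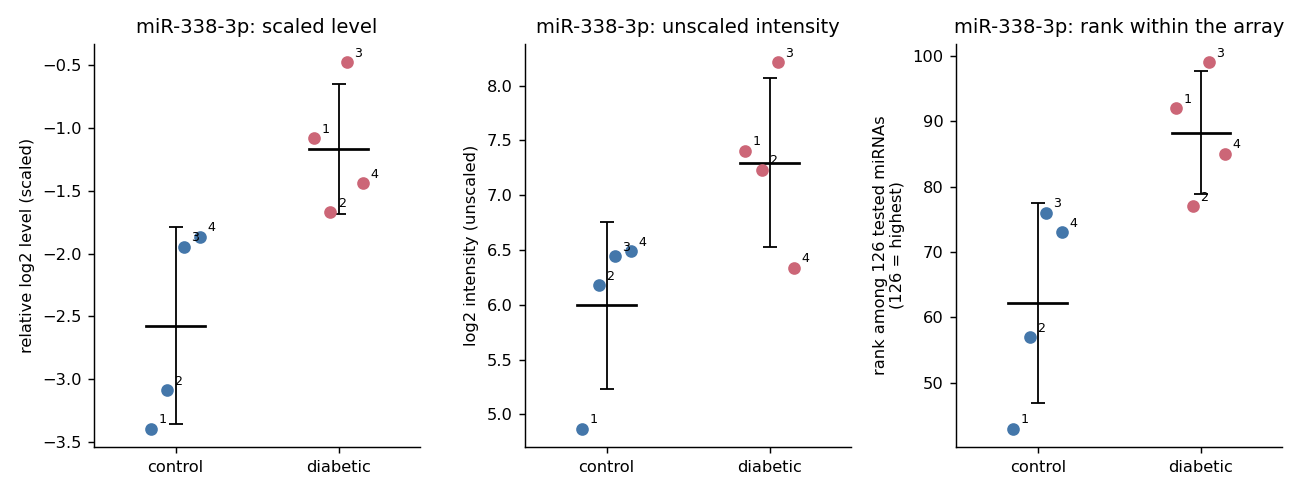
miR-338-3p on each array as scaled relative log2 level (left), unscaled log2 intensity (middle) and rank among the 126 tested miRNAs of the array (right, 126 is the highest). Points are arrays labelled by replicate number and bars are group means with SD (n = 4); the groups are separate in the left and right panels, and in the middle panel diabetic 4 falls among the control arrays.

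The separation depended on scaling the arrays. The 75th percentile used for scaling ran from 308 to 618 on the control arrays and from 219 to 479 on the diabetic arrays, with control 2 the brightest and diabetic 4 the dimmest of the 8. Without scaling the log2 intensities of miR-338-3p were 4.87, 6.18, 6.45 and 6.49 on control arrays 1 to 4 and 7.41, 7.23, 8.21 and 6.34 on diabetic arrays 1 to 4. The difference was then 1.30 and diabetic 4 lay below control 3 and control 4. The rank of miR-338-3p within its own array does not change when an array is multiplied by a factor. Among the 126 tested miRNAs it ranked 43, 57, 76 and 73 from the lowest on control arrays 1 to 4, and 92, 77, 99 and 85 on diabetic arrays 1 to 4. These ranks again did not overlap, with control 3 and diabetic 2 next to each other at 76 and 77.

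The probes were also taken singly, with the same scaling of the arrays. For A_54_P2545 the scaled log2 level of the control arrays was -1.69 ± 0.79, against -0.30 ± 0.52 in the diabetic group (SD, n = 4), a difference of 1.39. The dim A_54_P2544 measured -5.29 ± 0.78 and -3.72 ± 0.58 (SD, n = 4). Of its 8 array values 5, those of the control arrays and of diabetic 4, were not well above background.

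All control arrays lay in row 1 of the slide and all diabetic arrays in row 2, so row and group cannot be told apart. Each of the 4 slide columns held 1 array of each group. Within columns 1 to 4 the log2 difference of miR-338-3p was 2.31, 1.42, 1.47 and 0.43. Since every diabetic array exceeded every control array, any such pairing gives a positive difference, and nothing is read from the sign. The difference was smallest in column 4, where control 4 was compared with diabetic 4. The median difference of all tested miRNAs was -0.01, 0.30, -0.03 and -0.10 in these columns.

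With the groups as titled, the signed difference of miR-338-3p was the highest of the 126 miRNAs detected on at least 4 arrays. It was also the highest in 19 of 23 alternatives. The floor, filter and replicate block settings are among these and leave its value unchanged, so they add little to the count. The difference of miR-338-3p ranked 2 with normexp, and 3 with quantile normalization, without control 1 or without diabetic 3. Within slide columns 1 to 4 the difference of miR-338-3p ranked 1, 6, 1 and 15 from the highest. By size over all 8 arrays miR-338-3p ranked 2, after miR-801, which was detected on 7 arrays and had a difference of -2.17 (SE 0.63). On diabetic 3 miR-801 stood at the floor of -5.95, the lowest level given to any miRNA, which partly sets this size. With the groups as the strain entries name them, the value of miR-338-3p turns to -1.41 and is the lowest of the 126. Over all of them the median log2 difference was -0.06, with quartiles at -0.27 and 0.23, and the next highest was 1.25 for miR-29c, whose family represses collagen mRNAs. Its spread was also wide: the SD of 0.78 over the control arrays ranked 20 of 126, against a median of 0.43, and that of 0.52 over the diabetic arrays ranked 15, against a median of 0.23. Of the 2 arms, 1 was detected on enough arrays to be compared, and its groups did not overlap with the diabetic arrays higher, as for 7.94% of the tested miRNAs (10 of 126), or 8.73% (11 of 126) in either direction. By the limma threshold (Benjamini-Hochberg adjusted p under 0.05), 0 of the 2 arms were among the 4.76% of miRNAs called (6 of 126, all 6 higher). With the slide column as a block miR-338-3p was among those passing, and the split of calls was 7 higher and 3 lower. The split was 5 and 2 with scaling to the median, 8 and 1 with the percentile over all probes, 5 and 3 with normexp and 7 and 2 where detection on all 8 arrays was required. Nothing is read from these counts, since the choice of the hairpin used this contrast. The count of 6 called was 2 when control 1 or control 2 was left out, 2 again without any one of diabetic 1, diabetic 2 and diabetic 3, and 4 without diabetic 4. It was 9 without control 3 and 7 without control 4.

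**Figure D3:**
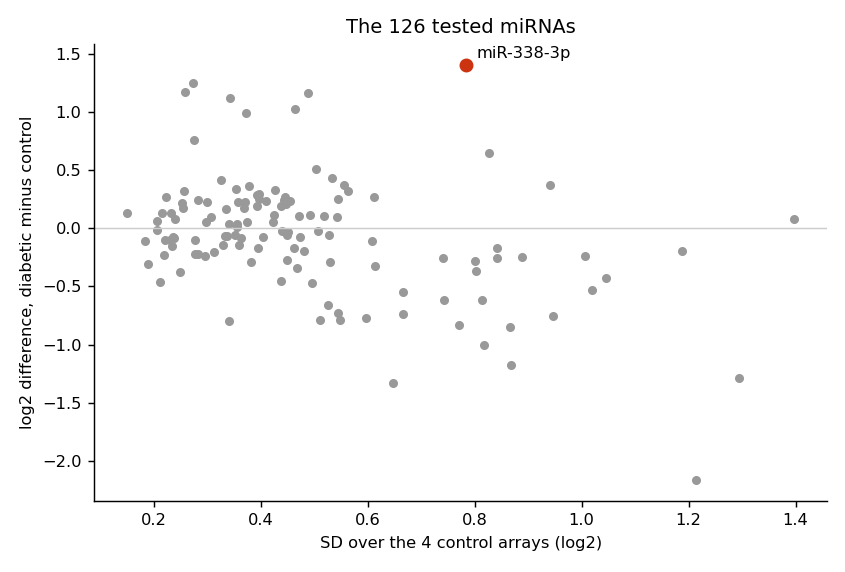
Log2 difference, diabetic minus control, against the SD over the 4 control arrays for the 126 tested miRNAs (grey points), with miR-338-3p in red. miR-338-3p has the highest signed difference, 1.41, at an SD of 0.78, above the median SD of 0.43, and miR-801 lies farther from 0 at -2.17.

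The size of the difference varied with the arrays and settings used. Leaving out 1 array at a time gave log2 differences from 1.13 (2.18-fold, without control 1) to 1.64 (3.12-fold, without control 4). The groups did not overlap in any of these 8 cases. Separate groups stay separate when an array is removed, unless the scaling shifts them, so nothing is read from this. With normexp background correction and its offset of 50, computed from the median spot signal in place of the processed one, the difference was 0.86 (1.82-fold) and the groups did not overlap. The highest value, 1.73, came from scaling by the percentile over all mouse probes, which moved the median of all tested miRNAs from -0.06 to 0.26. Relative to that median the value was 1.47 under both scalings. This equality is built in, since a new divisor shifts all miRNAs above the floor on an array by the same amount.

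**Figure D4:**
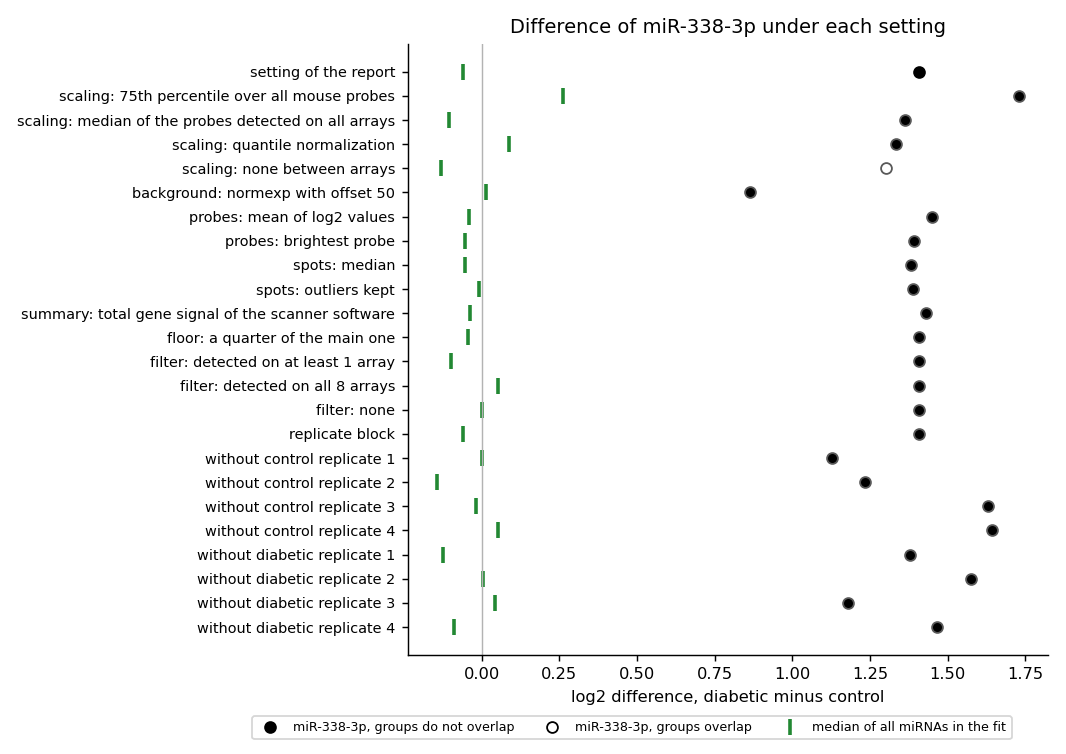
Log2 difference of miR-338-3p, diabetic minus control, under the setting of the report and 23 alternatives; filled circles are settings in which the groups do not overlap, the open circle the one in which they do, and green ticks the median of all miRNAs in the fit. All values lie between 0.86 and 1.73, and the groups overlap without scaling between arrays.

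The 5 miRNAs whose scaled log2 levels followed miR-338-3p most closely over the 8 arrays were miR-101a, miR-26b, miR-193, miR-29b and miR-24-1*. Pearson's r was 0.91, 0.91, 0.89, 0.88 and 0.86 in that order, against a median of -0.02 over the 125 other tested miRNAs. The arrays share 1 slide and 1 scaling and form the 2 groups compared, so r includes the group difference and is given as a description. With each group's mean removed it was 0.76, 0.82, 0.71, 0.65 and 0.86. The miRNA with the highest r after that removal was miR-301a, at 0.89, whose log2 difference between the groups was 0.11.

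miR-101a, known to repress the histone methyltransferase gene Ezh2, had levels of -2.39 ± 0.46 on the control and -1.36 ± 0.20 on the diabetic arrays (SD, n = 4), a log2 difference of 1.03 (SE 0.25). miR-193 went from -2.05 ± 0.49 to -0.89 ± 0.15 (SD, n = 4; difference 1.16, SE 0.26), and miR-29b from -0.77 ± 0.37 to 0.22 ± 0.04 (SD, n = 4; difference 0.99, SE 0.22). These 3 are among the 6 that passed the limma threshold. miR-26b differed by 0.27 (SE 0.19), and its lowest diabetic array stood at -1.33 against -1.34 for the highest control array. miR-24-1*, the lesser strand of a miR-24 hairpin, differed by 0.65 (SE 0.36) and its groups overlapped. Like miR-338-3p, each of the 5 was lower on control 1 and control 2 than on the other control arrays.

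**Figure D5:**
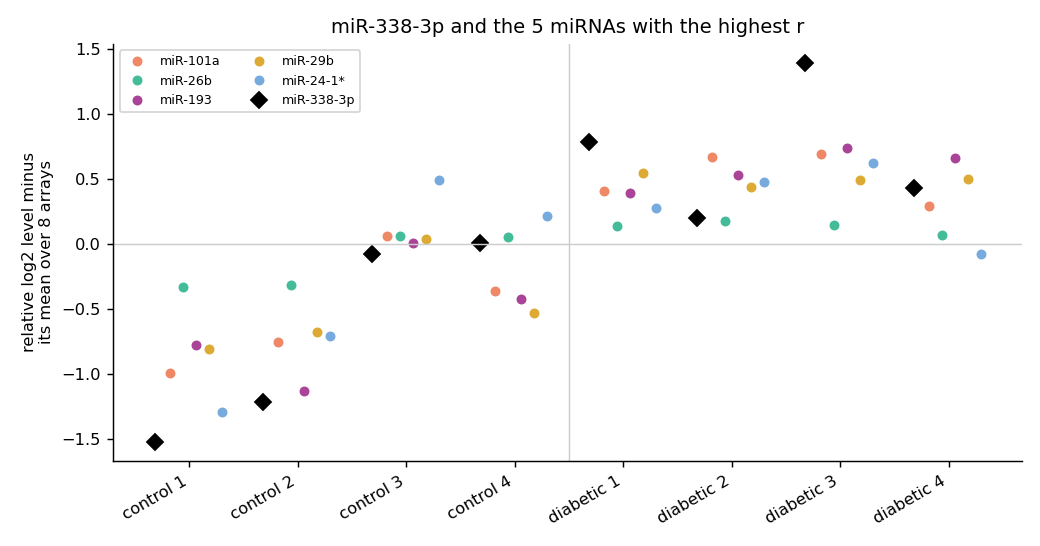
Relative log2 level minus its mean over the 8 arrays for miR-338-3p (black diamonds) and the 5 miRNAs with the highest Pearson's r (coloured circles), by array. All 6 are lower on control 1 and control 2 than on control 3 and control 4, and miR-338-3p spans the widest range.

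Because miR-338-3p is known from glia and neurons, other miRNAs of the nervous system were examined. Of 20 measured members of a neural and glial list, 18 were detected on 0 arrays. Among them were miR-219, the partner of miR-338-3p in oligodendrocytes, and miR-9, miR-124 and miR-138. Over all 567 mouse miRNAs, 165 were detected on at least 1 array, so most miRNAs of any kind were on 0 arrays. The 2 members of the list that were detected, miR-128 on 8 arrays and miR-212 on 4, had log2 differences of -0.14 (SE 0.23) and -0.26 (SE 0.38). The list's summed linear level ran from 0.154 to 0.270 in the control and from 0.180 to 0.224 in the diabetic group.

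The tissue label was checked against muscle markers. The muscle-specific miR-133b and miR-1 were detected on all 8 arrays, with control levels of 5.06 ± 0.49 and 4.62 ± 0.35 and diabetic levels of 5.17 ± 0.30 and 4.96 ± 0.04 (SD, n = 4). Of 7 measured miRNAs of the muscle list, 6 were detected, 6 were tested and 0 passed, beside 4.76% of all tested miRNAs (6 of 126). Their log2 differences had a median of 0.10, with 4 above 0 and 2 below. Those below were miR-206, known from slow and regenerating muscle, at -1.33 (SE 0.44), and miR-208b, encoded in a myosin gene, at -0.53 (SE 0.54) and detected on only 4 arrays. Diabetic 4 stood apart for miR-206, at -1.75 against -0.01 to 0.20 on the other diabetic arrays. Without diabetic 4 the difference of miR-206 was -0.91. In such bulk RNA, fewer cells of a type and less RNA per cell cannot be told apart.

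Among lists of other cells, 0 members passed the limma threshold in either direction, beside 4.76% of all tested miRNAs (6 of 126, all 6 higher). Of 11 leukocyte miRNAs 5 were detected, and all 3 tested had negative log2 differences. miR-223, abundant in myeloid cells, was at -1.29 (SE 0.62) and miR-342-3p at -0.80 (SE 0.23). For miR-342-3p the highest diabetic array, at -3.85, lay below the lowest control array, at -3.66. Groups did not overlap for 8.73% of the tested miRNAs (11 of 126) in either direction, and those of miR-223 and miR-155 overlapped. Control 2 stood apart for miR-223, at 0.79 against -2.07 to -0.82 on the other control arrays, and without it the difference was -0.70. The summed level of this list was 0.389 to 2.10 on the control arrays, highest on control 2, and 0.227 to 0.676 on the diabetic arrays, so the ranges overlapped. All 4 tested of 5 stromal miRNAs had negative values, with miR-199b* at -0.29 (SE 0.26) and miR-199b at -0.45 (SE 0.24), and the summed levels overlapped, at 0.678 to 1.36 and 0.662 to 0.764. The part of these cells in the miR-338-3p difference was not tested.

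Of the remaining lists, erythroid miR-451 and miR-486 were at -0.33 (SE 0.35) and -0.02 (SE 0.28), and endothelial miR-126-3p and smooth muscle miR-143 at -0.07 (SE 0.23) and -0.03 (SE 0.26). miR-192 and miR-122 of liver and kidney were at 0.27 (SE 0.24) and 0.08 (SE 0.62). They were detected on 7 and 5 arrays, and miR-122 stood at the floor on control 2 and control 3. In these lists 3 endothelial and smooth muscle miRNAs and 1 of liver and kidney were detected on 0 arrays. All 12 measured epithelial miRNAs were detected on 0 arrays, as were most of the 567 mouse miRNAs.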

How the data were processed

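Total RNA of 8 samples was hybridised to 8 1-colour arrays on 1 slide, scanned in 1 scan. Per the file headers, spots were read with Feature Extraction 10.5.1.1 and the probe design names mm9. The deposited values are spot intensities from which the scanner software had subtracted a background fitted over the array, not normalized across arrays, and flags of 0 or 1. The labels name no normalization or test.

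Control and viral spots (outside the normexp fit) and outlier spots were left out, and the other spots were averaged per probe (1672 mouse probes). The scaling divisor of an array was the 75th percentile of the 152 probes found on every array. Probes were averaged per miRNA, a floor of 0.0162 (1st percentile of the levels detected) was set, and log2 was taken. The 126 miRNAs detected on at least 4 arrays were fitted with limma 3.58.1 in R 4.3.3, with Benjamini-Hochberg adjustment. This fit was tested on simulated data. The number of arrays limits the precision.

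The members, marker lists, rules and alternatives were chosen with earlier results of these data known. Named miRNAs are both members, the 5 with the highest r, detected neural miRNAs and 2 members of each other list by arrays detected and level; miR-301a, miR-801, miR-206, miR-208b, the undetected neural miRNAs and the hairpins with both arms detected were named after their values were seen. The array names miR-128 where the list has miR-128a and miR-128b. Folding used ViennaRNA 2.7.2 and figures matplotlib 3.10.9. Alternatives covered scaling, background, summaries, floor, filter, replicate block and each array left out.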

Additional observations from a re-analysis of the deposited data

Results flagged for a closer look

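Of 26 groups of 4 arrays examined for an array far from the other 3, 3 had one, and chance flags about 1 in 20 groups. The dim miR-338-3p probe A_54_P2544 read 4.10 on control 1, against 12.5 to 13.4 on the other control arrays. The miR-338-5p probe A_54_P2541 read -2.37 on diabetic 4, against -0.07 to 0.12 on the other diabetic arrays, all at the level of the background. The 75th percentile of intensity was 618 on control 2, against 308 to 336 on the other control arrays; without control 2 the log2 difference of miR-338-3p was 1.24.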

How the results depend on the processing

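The log2 difference of miR-338-3p was positive in all 23 alternatives, from 0.86 to 1.73. It moved by less than the pooled SD between arrays of 0.67 in each. The floor, filter and replicate block settings gave 1.41 again, since they do not act on the group means of this miRNA. With 1 array left out the difference of miR-338-3p ran from 1.13 to 1.64. Under the limma threshold it passed in 7 of the 23, the replicate block among them, which is not read as a test because the choice of the hairpin used this contrast. miR-338-5p was detected on 0 arrays in every alternative. All of them used the same spot flags, of which this arm had none, so they could not change this. The difference of miR-338-5p has no value in any. The number of miRNAs passing, 6, was 0 without scaling, 2 with detection on at least 1 array required, 2 with no filter and 10 with the replicate block (7 higher, 3 lower), and ran from 2 to 9 with 1 array left out. Whether equal replicate numbers, which are also slide columns, pair the arrays was not settled, as there are only 4 such pairs. Deviations of same-numbered arrays correlated at -0.29 to 0.51, above 0.1 in 2 of 4 pairs. Those of arrays with unequal numbers correlated at -0.55 to 0.32, and 4 of 8 arrays correlated best with their own number. The cause of these changes was not tested, except that fewer arrays or more miRNAs in the fit are part of the leave-out and filter settings. Normexp used the median spot signal, as the files hold no mean. Signal over background limits miR-338-5p and probe A_54_P2544.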

Other observations

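The miRNA whose level ran most opposite to miR-338-3p over the 8 arrays was miR-709, with Pearson's r of -0.93, or -0.89 with the group means removed. It was detected on 8 arrays and its log2 difference was -0.78 (SE 0.33). It was picked after its values were seen, and the arrays share 1 slide and 1 scaling.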
